A study of Mus musculus with 2 samples.

Results

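The miR-218 genes of the mouse are Mir218-2 (ENSMUSG00000065583.1) and Mir218-1 (ENSMUSG00000065603.1), and they were chosen by name, as the miRNA genes that lie in introns of Slit3 and Slit2. They are 2 of the 1973 microRNA (miRNA) genes counted. Small RNA of under 30 nucleotides was sequenced from single hindbrains of newborn B6NCrl mice at postnatal day 0. The series holds 1 group of 2 libraries, replicate 1 from pup 1 and replicate 2 from pup 3. The labels give both pups the same donor identifier, record no sex and name no treatment or altered allele. With no second condition, the questions open to the data were how strongly each copy was counted and how far the pups differed.

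As background, miR-218 is known in the mouse as a miRNA of motor neurons, the cells that drive muscle, and mice without it die at birth with failing neuromuscular function. The newborn hindbrain holds the cranial motor nuclei among many other cell types. Slit2 and Slit3 encode secreted guidance proteins that repel growing axons through Robo receptors, and motor neurons can also transcribe miR-218 from promoters inside the Slit genes. One precursor hairpin gives a 5p and a 3p arm, and the loaded strand finds its targets mainly through its seed, bases 2 to 8.

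The mature sequences are shown first because they show which reads could be assigned to a copy. They are RefSeq sequences on GRCm38.p6, written 5′ to 3′ with the seed in capitals.
mmu-miR-218-5p: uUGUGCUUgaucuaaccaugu
mmu-miR-218-2-3p: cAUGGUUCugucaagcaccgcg
mmu-miR-218-1-3p: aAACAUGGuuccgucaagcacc
The 5p arm of 21 bases was identical in both hairpins, while each hairpin had a 3p arm of its own. The annotated 3p arms start at base 67 of the Mir218-2 hairpin and base 64 of the Mir218-1 hairpin, so their seeds differ. Of the other mature mouse miRNAs in the RefSeq table, mmu-miR-7002-3p has the 5p seed, mmu-miR-496b has the seed of the Mir218-1 3p arm, and 0 have that of the Mir218-2 3p arm.

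The whole hairpins show how much sequence separates the copies, with the mature arms in capitals.
Mir218-2 hairpin: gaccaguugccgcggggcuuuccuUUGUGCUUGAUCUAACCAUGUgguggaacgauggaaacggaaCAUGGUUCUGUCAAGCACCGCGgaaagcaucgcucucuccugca
Mir218-1 hairpin: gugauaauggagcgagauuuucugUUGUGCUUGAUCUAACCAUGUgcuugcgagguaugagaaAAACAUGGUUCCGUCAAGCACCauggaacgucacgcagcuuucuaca
Both hairpins are 110 bases long, and a global alignment gave 81 identical bases in 115 columns (70.4%). GC content was 54.5% for Mir218-2 and 45.5% for Mir218-1. The folded minimum free energy from RNAfold was -42.3 kcal/mol for Mir218-2 and -36.6 kcal/mol for Mir218-1. The longest run of bases that the hairpins share is 22 bases, the 5p arm and 1 base after it. On the 3p side, bases 65 to 85 of the hairpins differ by 1 substitution, C75U, written as the Mir218-1 base, the position counted from 1 at the 5′ end of the hairpin, and the Mir218-2 base.

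The tables hold a separate row named for multimapping reads, those with matches at several places in the genome. By its name such reads were kept apart from the genes, but the rule that put reads there is not stated in the labels or files. If they were kept apart, the shared run bears on the counts. Of all possible 20-base windows, 3 of 91 in each hairpin also occur in the other hairpin. At 22 bases it was 1 of 89, and at 23 bases 0 of 88. A read of the exact 5p arm therefore matches both copies, and a read of either annotated 3p arm, or a 5p read that runs at least 1 base further upstream or 2 bases further downstream, matches 1. Among 141767 annotated transcripts, the 5p sequence occurred on either strand in Mir218-1 and Mir218-2 alone. Matches elsewhere in the genome were not searched, and how many mismatches the authors' alignment allowed is not stated in the labels or files. The tables give counts per gene and not per arm, so how many of the counts came from each arm was not measured.

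**Figure D1:**
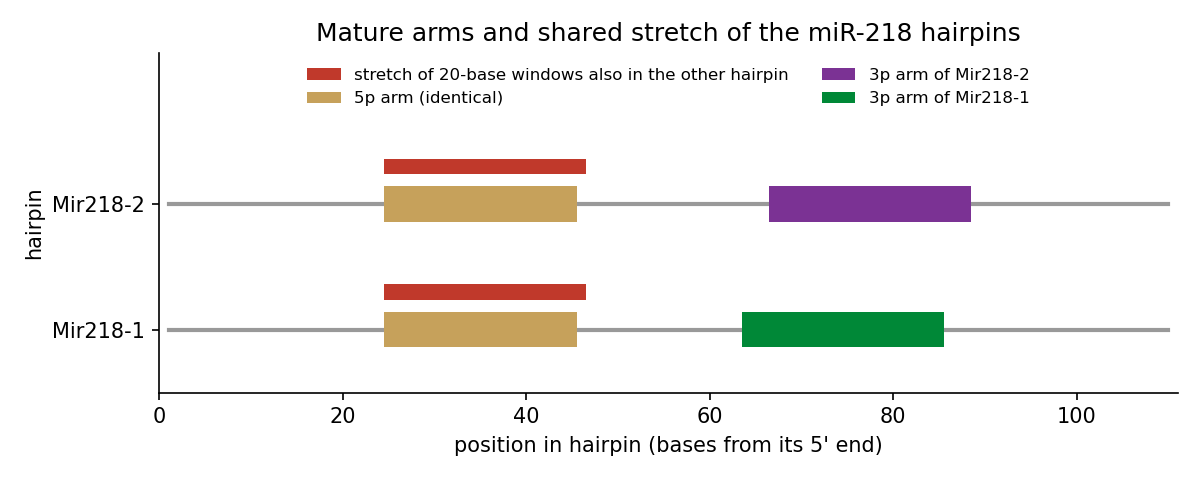
Position in bases along the 110-base Mir218-2 and Mir218-1 hairpins (horizontal axis), with the annotated 5p and 3p arms as boxes and the stretch covered by 20-base windows found in both hairpins as red bars. The shared stretch covers the 5p arm and 1 base beyond it, and the 3p arms start at bases 67 and 64.

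Mir218-2 lies at chr11:35616816-35616925 on the plus strand of GRCm38, the assembly of mm10. Its host Slit3 (ENSMUSG00000056427.10) runs on the same strand, and the hairpin sits in an intron of 9571 bases after exon 14 of a transcript with 36 exons, 4379 bases from the upstream exon. Mir218-1 lies at chr5:48223942-48224051 on the plus strand. Its host Slit2 (ENSMUSG00000031558.15) also runs on the same strand, and in 7 annotated transcripts an intron contains the hairpin. Over these transcripts there are 3 distinct introns, of 3662, 4572 and 1114 bases. The intron of 3662 bases follows exon 16 of the transcript with 39 exons. In each of the 7 transcripts the next exon begins 601 bases downstream of the hairpin. Neither hairpin overlaps an annotated exon of its host. The tables count miRNA genes only, so the levels of Slit2 and Slit3 themselves were not measured.

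The depth was 4906127 own-strand miRNA gene counts in pup 1 and 6238680 in pup 3, out of 12126529 and 14316243 reads in the tables. Levels are CPM, the counts on a gene's own strand per 1000000 such counts of the library. They are not divided by length, since each read is a whole small RNA, and both miR-218 hairpins are equally long. Genes at 2 CPM or more in each pup were taken as detected, 407 in all (20.6%). The level that a count of 0 allows, at 3 counts, was 0.611 CPM for pup 1 and 0.481 CPM for pup 3. Such floors and all intervals below cover counting error only. The tissue check used miRNAs known to mark cells. The Hox-cluster genes Mir10a and Mir10b stood at 28396 ± 5365 and 14983 ± 6974 CPM (SD, n = 2), and the neuronal Mir137 at 11351 ± 16.5 CPM. Of the markers with an entry, 5 of 6 Hox-cluster genes and 5 of 8 neuronal genes were detected. The neuronal genes under detection were copies of miR-9 and miR-124, whose reads may match several places.

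Mir218-2 was the copy with more assigned counts in both hindbrains. It had 900 counts in pup 1 and 969 in pup 3, or 183 CPM in pup 1 (exact Poisson 95% interval 172 to 196) and 155 CPM in pup 3 (146 to 165). The mean was 169 ± 19.9 CPM (SD, n = 2). By mean level it ranked 206 of the 1973 genes, at place 203 in pup 1 and 205 in pup 3. Of the 407 detected genes, 49.4% had a lower mean, so it stood close to the median detected gene, which had 178 CPM.

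Mir218-1 was detected at a lower level. It had 222 counts in pup 1 and 210 in pup 3, or 45.2 CPM in pup 1 (39.5 to 51.6) and 33.7 CPM in pup 3 (29.3 to 38.5). The mean was 39.5 ± 8.19 CPM (SD, n = 2), and 33.4% of detected genes had a lower mean. It ranked 271 of 1973 by mean, at place 269 in pup 1 and 271 in pup 3. The ranges of the copies did not overlap, since the lower Mir218-2 value lay far above the higher Mir218-1 value. Neither gene had a count on the opposite strand in either pup, so all their reads ran in the direction of the hairpin and its host.

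**Figure D2:**
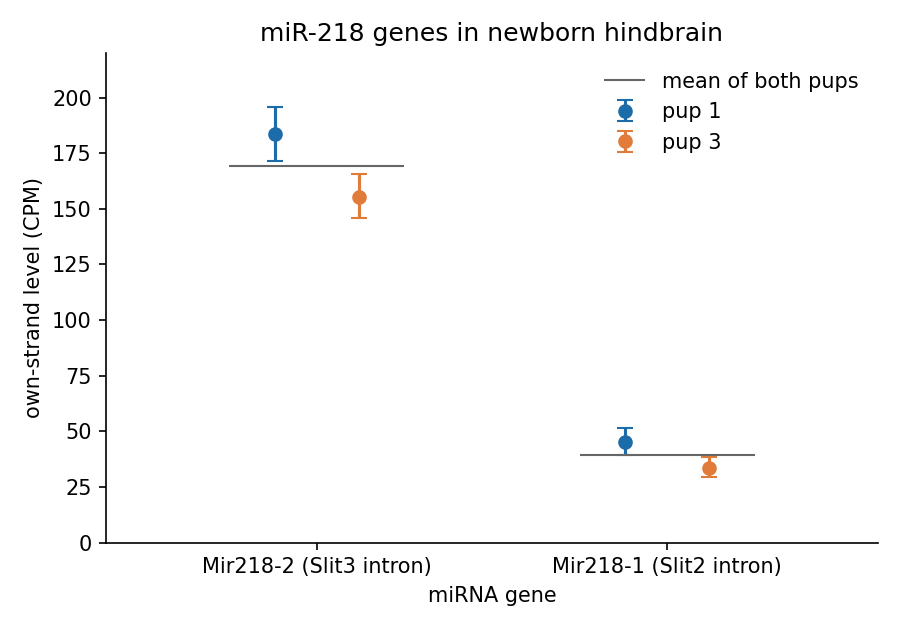
Own-strand level in CPM (vertical axis) of Mir218-2 and Mir218-1 in pup 1 and pup 3, with exact Poisson 95% intervals as bars and the mean of both pups as a line. Mir218-2 lies at 183 and 155 CPM and Mir218-1 at 45.2 and 33.7 CPM, and pup 1 is the higher one for both genes.

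Mir218-2 gave 80.2% of the counts of both genes in pup 1 (exact Clopper-Pearson 95% interval 77.8 to 82.5) and 82.2% in pup 3 (79.9 to 84.3). This is a ratio of Mir218-2 to Mir218-1 of 4.05 in pup 1 (3.50 to 4.72) and 4.61 in pup 3 (3.97 to 5.38), with a mean of 4.33 ± 0.396 (SD, n = 2). The intervals of the pups overlapped, and Mir218-2 was the higher copy in both. The ratio describes reads that the authors assigned to 1 copy. How reads of the identical 5p arm were assigned was not measured, and whether the differing 3p arms were captured equally was not tested.

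Summed over the copies, pup 1 had 229 CPM and pup 3 had 189 CPM, with a mean of 209 ± 28.1 CPM or 0.0209% ± 0.00281 of own-strand counts. Set beside them, reads that matched several places numbered 4601400 in pup 1 (37.9% of reads in the table) and 5639848 in pup 3 (39.4%). That is 4101 such reads in pup 1 and 4784 in pup 3 for each count assigned to a miR-218 gene. These reads are of the whole library, and for each own-strand count of all genes there were 0.938 in pup 1 and 0.904 in pup 3. The row does not say which genes these reads match, so the level of miR-218-5p was not measured. In whole tissue, fewer motor neurons and less miR-218 per cell cannot be told apart either.

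On TMM scaling both miR-218 genes were higher in pup 1, by less than the test could call. An exact binomial test, two-sided, compared each gene's counts with the ratio of TMM effective library sizes, and p-values were Benjamini-Hochberg adjusted over 508 genes with at least 10 counts in sum. It compares these 2 libraries, not conditions, and holds no estimate of the spread between animals. The log2 difference of Mir218-2, pup 1 over pup 3 on the log2(CPM + 1) scale, was 0.10 with a counting error (SE) of 0.07 (adjusted p = 0.216, exact binomial test). For Mir218-1 it was 0.28 with an SE of 0.14 (adjusted p = 0.0756, exact binomial test), and its unadjusted p was 0.0381. On library totals instead of TMM both passed the threshold of 0.05, with adjusted p = 0.000842 for Mir218-2 and 0.00503 for Mir218-1 (exact binomial test). How many of all 508 genes passed on library totals was not counted. With TMM 242 of them (47.6%) passed, and neither miR-218 gene was among these. That share is for another scaling, so whether passing on library totals sets the miR-218 genes apart was not tested. In the plot of CPM by pup, which is on library totals, the intervals of the pups do not overlap within a gene.

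With a call set at a difference of 2-fold or more and an adjusted p below 0.05, 0 of the 2 miR-218 genes were called, against 34 of 508 genes (6.69%) in either direction. At any fold, 0 of 2 passed, against 242 genes (47.6%). In the exact binomial test, 1 of the 2, Mir218-1, had an unadjusted p under 0.05. Over all 508 genes that share cannot be lower than the 47.6% that passed after adjustment. By size, 21.4% of detected genes had a smaller absolute log2 difference than Mir218-2, and 50.9% a smaller one than Mir218-1, beside a median of 0.27. In CPM the coefficient of variation over the pups was 11.7% for Mir218-2 and 20.8% for Mir218-1, against a median of 14.1% over detected genes. The biological coefficient of variation that edgeR estimated over 413 genes was 0.232.

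**Figure D3:**
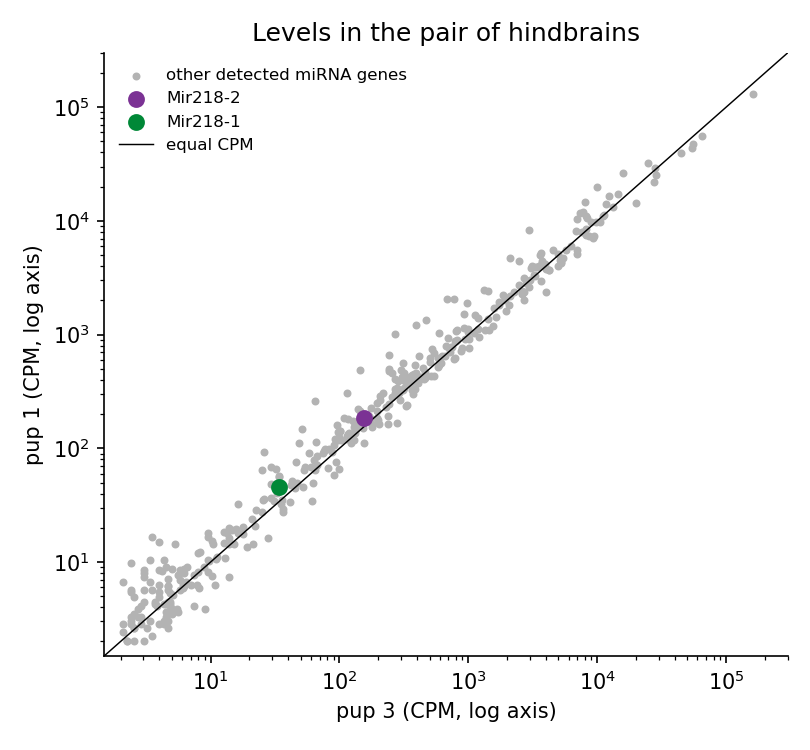
Level in pup 1 (vertical axis) against pup 3 (horizontal axis), both in CPM on log axes, for the 407 detected miRNA genes, with the line of equal CPM. Mir218-2 and Mir218-1 lie within the cloud of other genes and slightly above the line.

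Sharing of an identical arm is not particular to miR-218. RefSeq lists mature arms for 916 of the counted genes by symbol, and 50 of them, the miR-218 genes among them, have 1 arm that another hairpin also holds and 1 arm that it does not. Of these 50 genes, 39 were detected (78.0%), and the median over all 50 was 53.2 CPM. Mir218-2 lay above that median, with 16 of the 50 higher, and Mir218-1 below it, with 27 higher. Of 35 genes whose arms are all shared, 8 were detected (22.9%), and 22 had no count in pup 1 or pup 3. Of 831 genes whose arms are all unique, 324 were detected, with a median over all of 0.787 CPM. Hairpins that the RefSeq table does not list were not compared, so some arms called unique may also occur elsewhere.

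**Figure D4:**
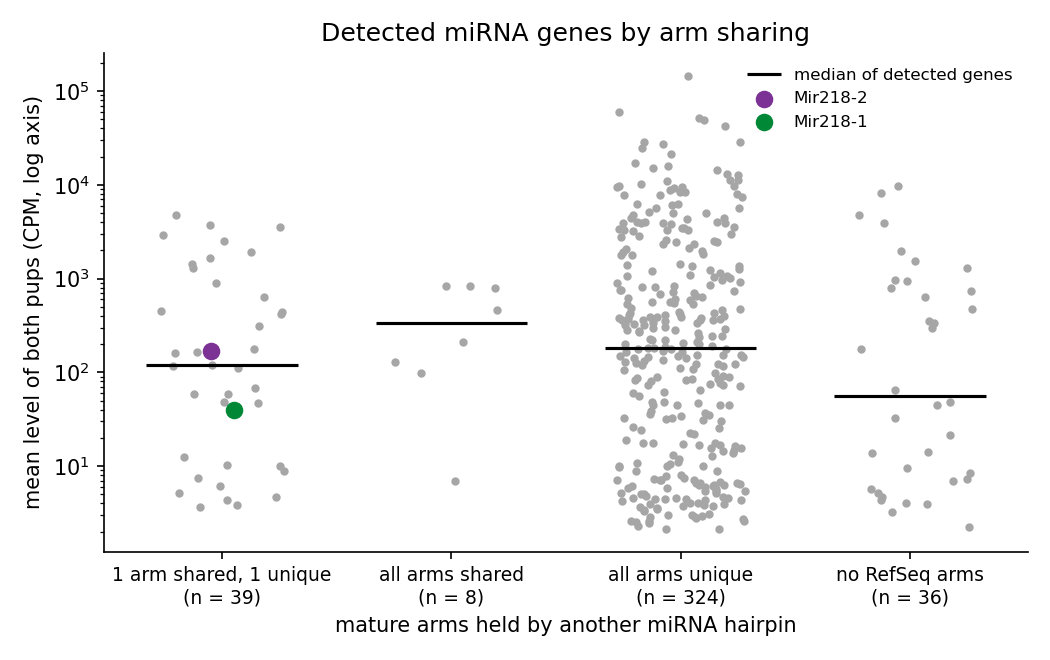
Mean level of both pups in CPM (vertical log axis) of detected miRNA genes, grouped by whether their mature arms also occur in another RefSeq hairpin, 1 point per gene with the median as a line. Mir218-2 at 169 CPM lies above the median of the 39 detected genes with 1 shared and 1 unique arm, which is 119 CPM, and Mir218-1 at 39.5 CPM below it.

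Other 2-copy miRNAs of the same build as miR-218 also have 1 identical and 1 different arm. Among the pairs with both copies detected, the inequality of Mir218-2 and Mir218-1 in assigned counts was in the middle. There were 19 pairs of this build with an entry for both copies, miR-218 included. Both copies were detected in 14 of them, 10 sharing the 5p arm and 4 the 3p arm. Taking the more abundant copy over the other, and the mean of the ratios of the pups, 6 pairs had a larger ratio than miR-218 and 7 a smaller one, and the median of the 14 was 3.34. In pup 1 alone, 5 were larger and 8 smaller. The pairs left out for a copy under detection had mean ratios of 72.7 (Mir194), 22.8 (Mir196a), 9.90 (Mir3070), 7.65 (Mir19b) and 1.21 (Mir365). Leaving out pairs with a low copy can remove large ratios, so the middle place holds for the 14 pairs only. Mir181b-2 over Mir181b-1 had the largest ratio of the 14 in both pups, at 61.0 in pup 1 and 75.8 in pup 3. Close to miR-218 were Mir26a-2 over Mir26a-1, at 4.42 in pup 1 and 5.08 in pup 3, and Mir16-1 over Mir16-2, at 3.72 in pup 1 and 5.47 in pup 3. At the even end, Mir135a-2 over Mir135a-1 was at 1.05 in pup 1 and 1.21 in pup 3, and Mir450-2 over Mir450-1 at 1.47 in pup 1 and 1.03 in pup 3. The order of the copies was the same in both pups in all 14 detected pairs.

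The assigned counts of miR-218 lay well under those of the leading copies in these pairs. The 4 most abundant copies were Mir181a-1 at 4738 ± 672 CPM, Mir128-1 at 3587 ± 457 CPM, Mir16-1 at 1905 ± 826 CPM and Mir128-2 at 1649 ± 111 CPM (SD, n = 2). Mir128-1 and Mir128-2, copies of a miRNA enriched in neurons, share the 3p arm, and their ratio was 2.26 in pup 1 and 2.08 in pup 3. By the summed level of both copies, 8 of the 14 pairs lay above miR-218. Since the arm behind these counts was not measured, they do not rank the miRNAs.

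**Figure D5:**
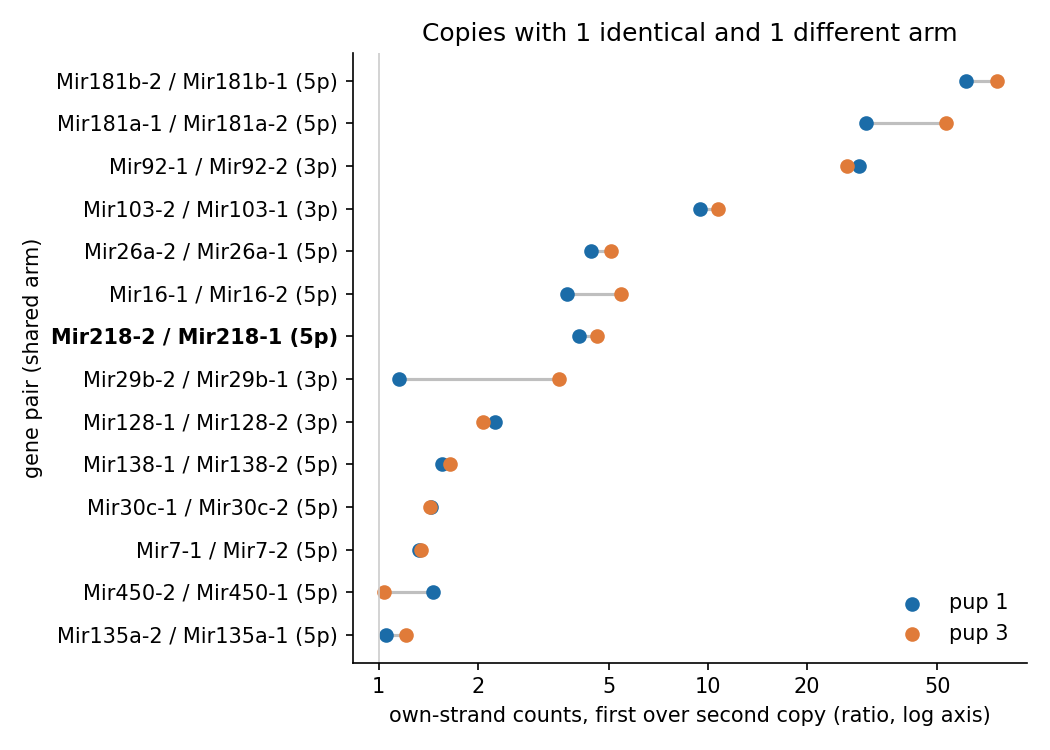
Ratio of own-strand counts of the more abundant over the less abundant copy (horizontal log axis) in pup 1 and pup 3, for the 14 pairs of miRNA genes with 1 identical and 1 different arm and both copies detected, with the shared arm in brackets. The ratio for miR-218, in bold, is 4.05 in pup 1 and 4.61 in pup 3, and by the mean of the pups 6 pairs lie above it and 7 below.

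Other miRNAs known for roles in motor neuron development or identity were counted at widely different levels. Of 24 genes listed for such roles, miR-218 included, 22 had an entry and 18 of these were detected (81.8%), against 20.6% of all genes. The median over the 22 was 159 CPM and over all 1973 genes 0 CPM. All genes include 1057 without RefSeq arms, of which 3.41% were detected. Of the 50 genes with 1 shared and 1 unique arm, 78.0% were detected. Whether the list differs from other genes with RefSeq arms was not tested. Mir9-1 and Mir24-1 were not analysed here. Of the 22, 9 lay above Mir218-2 and 12 above Mir218-1. Some of these, such as Mir17 and Mir23b, have only unique arms, so the order is of assigned counts and does not rank the miRNAs.

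Members of the Mir17 cluster, which in the mouse sustains limb-innervating motor neurons, included Mir17 at 9681 ± 2034 CPM and Mir20a at 4004 ± 372 CPM (SD, n = 2). Mir18 had 1984 ± 62.3 CPM, Mir92-1 1309 ± 251 CPM, Mir19a 37.3 ± 5.49 CPM and Mir19b-1 10.3 ± 2.75 CPM. Mir92-1 and Mir19b-1 each have 1 arm that another hairpin also holds, so reads of it may be missing from their counts. The miR-23 and miR-27 genes, of which miR-27 tunes Hox protein timing in mouse motor neurons, ran from Mir23b at 8722 ± 2495 CPM and Mir23a at 7488 ± 835 CPM to Mir27b at 1078 ± 52.1 CPM and Mir27a at 152 ± 0.846 CPM. Mir24-2, of the Mir23a cluster, had 167 ± 18.4 CPM, less than 1 SD from Mir218-2, and also has 1 shared arm. Mir375, whose miRNA is known from human cells to promote motor neuron formation, stood at 462 ± 4.77 CPM.

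In assigned counts, the multi-copy miR-9 and miR-124 genes of neurons were mostly near or under detection. Every listed arm of Mir9-3 and Mir9-2 is also held by another hairpin. For the Mir124a genes sharing was not compared, since RefSeq lists no arms for them by symbol. Reads that match several places may be missing here, so the levels of miR-9 and miR-124 were not measured. Mir9-3 had 462 ± 108 CPM and Mir9-2 1.94 ± 0.709 CPM. Mir124a-1 had 9.44 ± 7.69 CPM, Mir124a-3 2.05 ± 2.00 CPM and Mir124a-2 1.70 ± 0.0937 CPM. The Hox-cluster miR-196 genes, known to mark posterior spinal cord levels, were low in assigned counts. Mir196b had 17.6 ± 2.47 CPM, Mir196a-2 5.19 ± 3.04 CPM and Mir196a-1 0.262 ± 0.0826 CPM. Mir196a-2 and Mir196a-1 share an identical 5p arm, so reads of it may be missing and the level of miR-196a was not measured. In assigned counts Mir218-1 stood above all 3 miR-196 genes in both pups, which does not rank the miRNAs.

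Markers of other cell types were present too, and their part in the miR-218 level was not tested. Pup 1 had 47819 CPM and pup 3 had 55787 CPM of Mir126a, the endothelial miRNA. All 3 red blood cell markers were detected, and summed to 498 CPM in pup 1 against 308 CPM in pup 3. Of the muscle markers with an entry, 2 of 5 were detected, Mir206 at 164 ± 11.1 CPM and Mir208b at 44.9 ± 15.7 CPM. Mir1a-1, Mir133a-1 and Mir133a-2 had 0 counts in both pups, and the assigned counts of the muscle markers summed to 228 CPM in pup 1 against 190 CPM in pup 3. Mir1a-2 had no entry, and RefSeq lists no arms for the Mir133a genes by symbol. Whether reads of these miRNAs matched several places was not tested, so the 0 counts do not show that the miRNAs were absent.

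Among 654 miRNA genes in an intron of a protein-coding host on the same strand, 164 were detected (25.1%). Mir218-2 had 74 and Mir218-1 96 of the 654 above it. Within 1 Mb of Mir218-2, the tables held Mir103-1, 165 kb away on the same strand in an intron of Pank3, a pantothenate kinase gene. Mir103-1 had 48 counts (9.78 CPM) in pup 1 and 15 counts (2.40 CPM) in pup 3, far under Mir218-2 in both. It shares its 3p arm with another copy, so reads of that arm may be missing from its counts. Within 1 Mb of Mir218-1 there was 0 other counted gene.

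The genes nearest in level were found by the distance in log2(CPM + 1) over the 2 libraries, which says nothing of shared function or control. For Mir218-2 they were Mir206 (172 CPM in pup 1 and 157 CPM in pup 3), Mir873a (194 CPM in pup 1 and 162 CPM in pup 3) and Mir214 (195 CPM in pup 1 and 162 CPM in pup 3). For Mir218-1 they were Mir679 (40.2 CPM in pup 1 and 32.5 CPM in pup 3), Mir1198 (48.3 CPM in pup 1 and 29.7 CPM in pup 3) and Mir208b (56.1 CPM in pup 1 and 33.8 CPM in pup 3).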

How the data were processed

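The authors deposited a table of raw counts for each library, in whole reads per miRNA gene, with mm10 and genome annotation M4 per the text files beside the tables. No aligner or counter is stated there. Own-strand counts were used. In pup 1 and pup 3, 17.7% and 13.9% of reads were unmapped, 37.9% and 39.4% matched several places and 3.91% and 3.12% lay in no feature on the own strand. These stayed out of totals and tests.

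Of 1973 gene IDs, 1894 matched GENCODE M21 (GRCm38) without version. Arms and hairpins come from RefSeq (GRCm38.p6), and an arm was shared where another hairpin holds its whole sequence. TMM and dispersion came from edgeR 4.0.16, alternative size factors from DESeq2 1.42.0, exact binomial tests from scipy 1.17.1, alignments from Biopython 1.88 (match 1, mismatch -1, gap opening -2, extension -1) and folding from RNAfold 2.7.2. Log2 differences used a pseudocount of 1 CPM. The comparison was tested on simulated data. P-values measure counting error between these samples only. The libraries differed by more than sampling noise (chi-square per gene 437), so they were not treated as 1 library deposited again, which does not show that they came from separate animals. Alternatives covered scaling, filters, the pseudocount, the count column, the denominator and leaving out a pup. Genes named are the miR-218 genes, the 3 nearest to each in level, counted genes within 1 Mb, a motor neuron list, cell markers and the 4 most abundant copies of 2-copy pairs. The pairs Mir181b, Mir26a, Mir16, Mir135a and Mir450, and the pairs left out for a copy under detection, were added after their values were seen. Members and lists were chosen with earlier results of these data known.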

Additional observations from a re-analysis of the deposited data

How the results depend on the processing

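On own-strand totals in place of TMM, the log2 difference of pup 1 over pup 3 was 0.24 for Mir218-2 (adjusted p = 0.000842, exact binomial test) and 0.42 for Mir218-1 (adjusted p = 0.00503), with the median of detected genes itself at 0.14. Under the other alternatives the adjusted p of the exact binomial test ran from 0.167 to 0.930 for Mir218-2 and from 0.0537 to 0.264 for Mir218-1. Pup 1 was higher in each, but with DESeq2 size factors the log2 difference of Mir218-2 was only 0.011 with an SE of 0.07. For Mir218-1 it was then 0.19 with an SE of 0.14. Per 1000000 of all reads in the table, which include reads at several places, the mean level was 71.0 for Mir218-2 and 16.5 for Mir218-1. With 1 pup left out, Mir218-2 had 155 to 183 CPM, Mir218-1 33.7 to 45.2 CPM, their ratio 4.05 to 4.61, and 421 to 435 genes were detected. With 100 or more counts required, 18 genes were called between pups, and fewer genes were tested (317). None of the settings tried called a miR-218 gene at 2-fold. No paired analysis was possible because the series has 1 group. Depth limits Mir218-1 to 222 counts in pup 1 and 210 in pup 3, and with 2 libraries the spread between pups is itself known only roughly.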
